A study of Mus musculus with 6 samples.

Results

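Serpins are a family of proteins most of which inhibit serine proteases by trapping the enzyme after it cuts an exposed loop of the inhibitor. Several of them control the plasminogen activators, the proteases that turn plasminogen into plasmin, which dissolves fibrin and helps to break down pericellular matrix. In cells of the bone marrow stroma the family also includes a collagen chaperone and a secreted factor studied in bone, so it touches both the making and the breakdown of matrix. The genes described here were every name in the deposited expression table that begins with Serpin, leaving out the complement inhibitor gene Serping1, plus Plau, Plat and Plaur, which encode urokinase, tissue-type plasminogen activator and the urokinase receptor. They numbered 32 of 19739 genes, 29 serpins and 3 genes of the activator system.

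The series measured mesenchymal stromal cells of mouse bone marrow (BMSCs), labelled as primary cells and infected with AAV, a viral vector, that delivered FTO. FTO is an RNA demethylase that erases m6A, a methyl mark on adenosine. Libraries labelled OE_3KR, of which there were 3, came from cells given the form named 3KR, and the 3 labelled OE_WT from cells given the form named WT. Every library therefore came from cells with an FTO vector, and cells that lacked one were not analysed here. Fto itself was at 443 ± 24.8 FPKM in 3KR and 258 ± 9.84 in WT (SD, n = 3 each; limma adjusted p = 4.497e-06), so the forms differ in its level too, and the 2 differences cannot be told apart. What 3KR stands for is not spelled out. The labels give neither the promoter of the vector nor the age, sex or number of mice, nor whether replicate libraries came from different animals or dishes. A p-value here is therefore set against the scatter of these libraries alone, and that scatter may be technical. By its title the study asked how SUMO modification of FTO bears on the fate of these cells when bowel inflammation leads to loss of bone. The libraries were inputs of an m6A assay on poly(A) RNA, so they give transcript levels and not m6A, and the immunoprecipitated libraries were not analysed here.

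Levels are in FPKM, which corrects fragment numbers for transcript length and library size, and the depth behind them is unknown. The test was limma, a linear model fitted across all genes, on log2(FPKM + 1). It took in the 10985 genes that reached 1 FPKM in 3 or more libraries, and a gene was called at a Benjamini-Hochberg adjusted p under 0.05. Across all genes tested 60.6% were called, 46.7% higher and 14% lower in 3KR, with a median log2 difference of 0.15, so differences relative to the median gene are given too. After median ratio scaling, which removes most of that shift, 45.7% were called, 21.6% higher and 24.1% lower. With libraries rescaled to the same sum 51.6% were called, 33.5% higher and 18.1% lower, and after quantile normalization 48.5%, 28.6% higher and 19.9% lower. Spearman's rho between libraries, taken over genes, was 0.994 to 0.995 within a form and 0.961 to 0.963 between forms. The 13 stromal markers in the list used here were all high enough to test. Under all 4 scalings 3 were called higher and 8 lower in 3KR, where 21.5% and 13.9% of all genes tested were. They went both ways, with Lepr, the leptin receptor, at 16.9 ± 0.501 FPKM in 3KR and 3.68 ± 0.258 in WT, and Cxcl12, a chemokine of the niche, at 70.3 ± 3.06 in 3KR and 409 ± 8.41 in WT (SD, n = 3 each). Markers of macrophages were near 0 by comparison, with 11 of the 14 in the table under 1 FPKM in every library.

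Of the 32 genes, 16 passed the filter on low values and 16 did not. Among the 16 tested, 8 were called higher in 3KR, 5 lower and 3 neither, so 13 of 16 were called where 60.6% of all genes tested were. The split was 6 higher and 6 lower after median ratio scaling, 6 and 5 after quantile normalization, and 8 and 5 with libraries rescaled to the same sum. The median log2 difference of the 16 was 0.15, the same as that of all genes tested to 2 decimals. Serpinb2 and Serpinb8 passed the filter only through the 3KR libraries and so had to differ, which is why no weight is put on these counts. Under all 4 scalings tried (as deposited, rescaled to the same sum, median ratio and quantile) 6 were called higher and 5 lower, against 21.5% and 13.9% of all genes tested, or 35.4% in both directions together. The groups did not overlap for 14 of the 16, 9 with 3KR above WT and 5 below, against 66.7%, 51.2% and 15.5% of all genes tested. Serpinb2, Serpinb8 and Serpinb1a were called and differed at least 2-fold in log2(FPKM + 1), as did 4.2% of all genes tested. The summed level of the 32 genes was 1002 to 1079 FPKM in 3KR and 1154 to 1179 in WT. That was 0.245% to 0.256% of the summed FPKM of a 3KR library and 0.296% to 0.301% of that of a WT library. Serpinh1 alone held on average 0.116% of the summed FPKM of a 3KR library and 0.168% of that of a WT library.

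**Figure D1:**
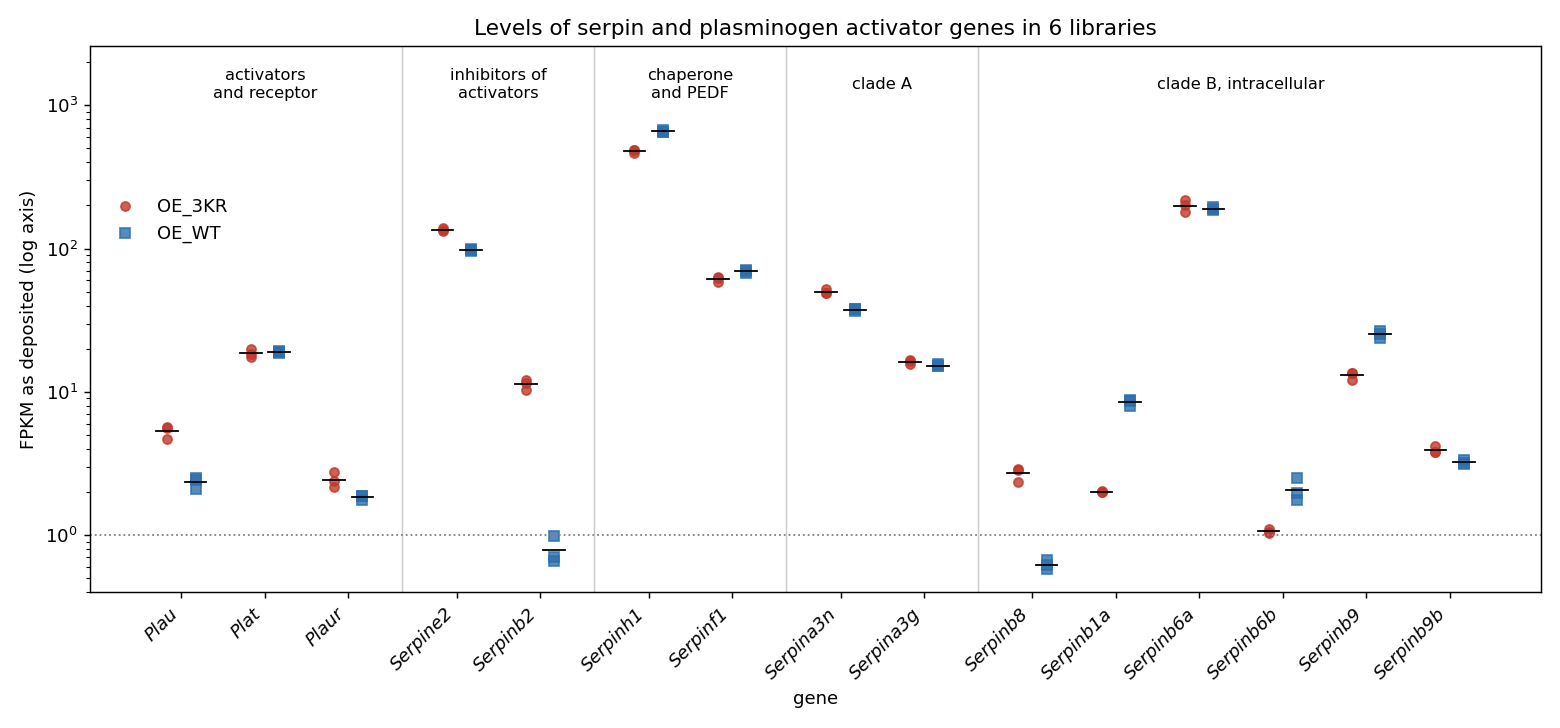
FPKM as deposited (log axis) of 15 tested serpin and plasminogen activator genes, with 1 point per library, red circles for the 3 OE_3KR libraries left of blue squares for the 3 OE_WT libraries, and a black bar at each group's mean. The dotted line marks 1 FPKM, which Serpinb2 and Serpinb8 pass in 3KR and not in WT. Serpinb6a and Plat are the genes whose groups overlap.

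The first question was whether the plasminogen activators themselves differed between the forms. Plau, which encodes urokinase, was 2.27 times higher in 3KR, Plat, which encodes the tissue-type activator, was at the same level within error, and Plaur, the urokinase receptor, was slightly higher. Plau stood at 5.70, 4.70 and 5.55 FPKM in the 3KR libraries, against 2.41, 2.52 and 2.10 in the WT libraries. Each 3KR library lay above each WT library. On the log2(FPKM + 1) scale the difference was 0.92 with a standard error of 0.0819 (limma adjusted p = 3.918e-05), or 0.77 relative to the median gene, and it was called under all 4 scalings. Plat stood at 18.4, 17.4 and 19.9 FPKM in 3KR, against 19.4, 18.8 and 18.6 in WT. The groups overlapped, and the log2 difference was -0.03 with a 95% interval of -0.15 to 0.10 (limma adjusted p = 0.664). Against the median gene Plat stood at -0.18, and median ratio scaling alone called it lower (log2 difference -0.19, limma adjusted p = 0.0138).

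Plaur, which anchors urokinase at the cell surface, was at 2.18, 2.39 and 2.74 FPKM in 3KR and at 1.88, 1.75 and 1.88 in WT. The groups lay apart by a narrow margin. The log2 difference of 0.27 was called as deposited (limma adjusted p = 0.0137). It was 0.12 relative to the median gene and was not called after median ratio scaling (limma adjusted p = 0.09535) or quantile normalization (0.08625). Plau and Plat thus drew closer in level, since both are given per transcript length. The ratio of Plat to Plau within a library, which no constant factor per library can move, was 3.22, 3.70 and 3.59 in 3KR and 8.05, 7.47 and 8.85 in WT. Plau per Plaur was 2.20 ± 0.360 in 3KR and 1.28 ± 0.161 in WT (SD, n = 3 each). The 3KR and WT libraries did not overlap for any of the 7 such ratios given here, and levels of single genes did not for 66.7% of all genes tested. Every pair held a gene called as deposited and was chosen with earlier results known, so no weight is put on this count. The two-sided exact permutation test gave p = 0.1 for each ratio, before and after adjustment over the 7. That is the smallest p that 3 against 3 libraries allow.

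Serpine2 and Serpinb2, inhibitors that act on the activators, were higher in 3KR, Serpinb2 by far the most. Serpine2 encodes protease nexin 1, a cell-surface inhibitor of thrombin, urokinase and plasmin. It was the more abundant of the pair, at 134, 136 and 139 FPKM in 3KR and 100.1, 98.1 and 95.9 in WT. Its log2 difference was 0.47 with a standard error of 0.0339 (limma adjusted p = 1.172e-05), or 0.32 relative to the median gene, and was called under all 4 scalings.

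Serpinb2 encodes plasminogen activator inhibitor 2, which stays largely inside the cell and inhibits urokinase and the tissue-type activator. It was at 10.4, 11.4 and 12.03 FPKM in 3KR and at 0.661, 0.704 and 0.981 in WT. The lowest 3KR library was more than 10 times the highest WT library, and the ratio of mean FPKM was 14.4. On the log2(FPKM + 1) scale, which understates changes of low genes, the difference was 2.79 with a standard error of 0.0851 (limma adjusted p = 9.8e-08). With a pseudocount of 0.1 it was 3.70. Its WT libraries were all under 1 FPKM, so it was tested only because it was high in 3KR.

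The serpins of matrix and bone that do not act as protease inhibitors were lower in 3KR. Serpinh1 encodes HSP47, a chaperone of the endoplasmic reticulum that binds folding procollagen. It was the most abundant of the 32 genes, ranking 65 among all genes by mean FPKM, at 463, 489 and 486 FPKM in 3KR and 669, 653 and 649 in WT. The groups did not overlap, and the log2 difference was -0.45 with a standard error of 0.0335 (limma adjusted p = 1.273e-05), or -0.60 relative to the median gene. Serpinf1 encodes pigment epithelium-derived factor, a secreted protein whose loss in humans causes a form of brittle bone disease. It was at 58.6, 62.5 and 63.5 FPKM in 3KR and at 71.1, 69.3 and 67.9 in WT. The groups lay close together without overlap, and the log2 difference was -0.17 (limma adjusted p = 0.00771), or -0.32 against the median gene. Both genes were called lower under all 4 scalings, and 14% of all genes tested were called lower as deposited.

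The procollagen chains that HSP47 binds were lower in 3KR by more than the chaperone. Serpinh1 per Col1a1, the main chain of type I collagen, was 0.576, 0.619 and 0.636 in 3KR and 0.364, 0.368 and 0.372 in WT. Per Col1a2, the partner chain, it was 1.21 ± 0.0719 in 3KR and 0.746 ± 0.00849 in WT, and per Col3a1, the chain of type III collagen, 1.52 ± 0.105 in 3KR and 0.462 ± 0.00241 in WT (SD, n = 3 each). Serpinh1 was thus higher relative to each of the 3 chains in every 3KR library although it was lower in level. These 3 chains are part of a list of 15 genes for procollagen folding and export, of which 14 were tested. In that list 2 were called higher and 7 lower, against 46.7% and 14% of all genes tested, with a median log2 difference of -0.11, against a median of 0.15 for all genes tested. Besides the chains, the leading genes were P4ha1 and P4ha2, catalytic subunits of collagen prolyl 4-hydroxylase. P4ha1 was at 80.9 ± 3.40 FPKM in 3KR and 181 ± 4.47 in WT, and P4ha2 at 20.9 ± 0.889 in 3KR and 32.4 ± 0.975 in WT (SD, n = 3 each; limma adjusted p = 1.867e-07 and 1.438e-05).

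Clade A of the serpins holds mostly secreted inhibitors of blood plasma, many made in liver, and the table held 8 of its genes, of which 2 were tested. Serpina3n, a mouse relative of human antichymotrypsin, was at 49.0, 52.2 and 48.6 FPKM in 3KR and at 37.8, 36.7 and 37.8 in WT. All 3KR libraries lay above all WT libraries, and the log2 difference of 0.41 (limma adjusted p = 8.003e-05), or 0.26 beyond that of the median gene, was called under all 4 scalings. Serpina3g, a mouse inhibitor of lysosomal cathepsins, was at 16.6, 16.4 and 15.7 FPKM in 3KR and 15.1, 15.2 and 15.6 in WT. Although its groups did not overlap, the log2 difference of 0.08, with a 95% interval of -0.02 to 0.18, was not called (limma adjusted p = 0.125) and turned to -0.08 after median ratio scaling and -0.03 after quantile normalization. Serpina3n and Serpina3g belong to a cluster of close paralogs, and no source used here says how reads shared between paralogs were counted, so the level of each is uncertain to that extent. The same holds for the Serpinb1, Serpinb6 and Serpinb9 groups below.

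Clade B consists of serpins that lack a classical signal peptide and act mostly inside cells, and it had the most tested genes of any clade. The table held 12 of its genes, and of the 7 tested 3 were higher, 3 lower and 1 not called, where 46.7% of all genes tested were higher and 14% lower. In the RefSeq gene table of mouse assembly GRCm38.p6 these genes lie in 2 clusters. Of the 4 on chromosome 1, Serpinb2 and Serpinb8 were tested and both were higher in 3KR, and Serpinb5 and Serpinb7 were listed at 0 in every library. Both tested genes passed the filter only through 3KR, so their direction was fixed by the filter and is no contrast with chromosome 13. Of the 8 on chromosome 13, 5 were tested, of which Serpinb1a, Serpinb6b and Serpinb9 were lower, Serpinb9b higher as deposited, and Serpinb6a not called.

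On chromosome 1, Serpinb8, whose human counterpart inhibits the proprotein convertase furin, was at 2.84, 2.37 and 2.92 FPKM in 3KR and at 0.618, 0.666 and 0.584 in WT. The ratio of mean FPKM was 4.35, and the log2 difference was 1.19 with a standard error of 0.0779 (limma adjusted p = 6.292e-06), called under all 4 scalings. Serpinb2 and Serpinb8 are near neighbours there and both passed 1 FPKM only in 3KR, so the 250 bases before their starts are shown, from the RefSeq promoter table on GRCm38.p6. Capitals mark matches to motifs searched on both strands. Serpinb2 (chr1:107511173-107511422, plus strand) holds ATTGG, the reverse complement of the CCAAT box, an AP-1 site (TGANTCA) starting 94 bases and a TATA box (TATAAA) starting 29 bases before this start of transcription. A second listed start has an overlapping window in which the same AP-1 and TATA letters begin 181 and 116 bases before it. Serpinb8 (chr1:107589756-107590005, plus strand) holds an AP-1 site starting 23 bases before the start.
Serpinb2: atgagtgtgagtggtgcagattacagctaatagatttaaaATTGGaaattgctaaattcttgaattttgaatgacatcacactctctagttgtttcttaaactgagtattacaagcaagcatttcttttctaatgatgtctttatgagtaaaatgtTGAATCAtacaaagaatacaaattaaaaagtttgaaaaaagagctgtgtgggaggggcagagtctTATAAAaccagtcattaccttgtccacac
Serpinb8: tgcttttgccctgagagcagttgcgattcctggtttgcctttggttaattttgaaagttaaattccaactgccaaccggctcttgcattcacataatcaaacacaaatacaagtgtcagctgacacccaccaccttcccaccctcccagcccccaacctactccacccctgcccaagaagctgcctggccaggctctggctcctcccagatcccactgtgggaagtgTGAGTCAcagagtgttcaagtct

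Promoter windows were found for 24 of the 32 genes. An AP-1 match stood in 6 of their 27 windows, 2 overlapping ones of Serpinb2 and 1 each of Serpinb5, Serpinb7, Serpinb8 and Plaur. The share among the 32851 windows of all mouse genes there was 6.75%. The 4 clade B genes of the expression table that lie on chromosome 1 all held the letters. They were higher in 3KR (Serpinb2 and Serpinb8) or listed at 0 in every library (Serpinb5 and Serpinb7). RefSeq lists more clade B genes there, such as Serpinb10, that are not in the expression table, and their windows are not described here. TATAAA was found in 12.4% of all windows and CCAAT in 33.8%. The other motifs searched were the heat shock element (GAANNTTC, in 6.69% of all windows), the GC box (GGGCGG, 32.7%) and the interferon response element (GAAA, any 2 bases and GAAA again, 2.98%). No 2 of the matches printed in capitals overlap. A match is a description of the letters and not a site shown to be bound.

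On chromosome 13, Serpinb1a, an inhibitor of neutrophil elastase and related proteases, was at 2.01, 1.999 and 2.03 FPKM in 3KR and at 8.64, 8.80 and 7.92 in WT. It was 4.20-fold lower in 3KR by mean FPKM, and its log2 difference was -1.65 (limma adjusted p = 1.617e-07), or -1.80 against the median gene. It ranked 102 from the bottom by log2 difference among all genes tested. Serpinb9, the inhibitor of granzyme B that protects cells from the cytotoxic protease, was at 12.2, 13.5 and 13.6 FPKM in 3KR and at 23.8, 26.8 and 25.4 in WT. It was 1.93-fold lower in 3KR by mean FPKM. The log2 difference was -0.90 with a standard error of 0.0599 (limma adjusted p = 6.827e-06), or -1.05 relative to the median gene. Serpinb6b was at 1.05, 1.03 and 1.11 FPKM in 3KR and at 1.97, 2.50 and 1.76 in WT, a log2 difference of -0.57 (limma adjusted p = 0.00104). For all 3 genes the groups did not overlap and the call held under all 4 scalings.

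Paralogs of Serpinb9 and Serpinb6b had other values. Serpinb9b, next to Serpinb9, was at 3.78, 4.21 and 3.83 FPKM in 3KR and at 3.19, 3.12 and 3.34 in WT, above WT in each 3KR library. It was called higher as deposited (log2 difference 0.23, limma adjusted p = 0.0111) but lay 0.08 from the median gene and was not called after median ratio scaling (limma adjusted p = 0.232) or quantile normalization (0.177). The ratio of Serpinb9 to Serpinb9b within a library was 3.33 ± 0.188 in 3KR and 7.88 ± 0.601 in WT (SD, n = 3 each). Serpinb6a, whose human counterpart inhibits cathepsin G, was the most abundant clade B gene, at 179, 200.2 and 217 FPKM in 3KR and 185, 195 and 188 in WT. Its groups overlapped, and the log2 difference of 0.07, with a 95% interval of -0.08 to 0.22, was not called (limma adjusted p = 0.394). Without 3KR replicate 1 it was called higher (log2 difference 0.14, limma adjusted p = 0.0301), and after median ratio scaling or rescaling to the same sum the sign turned (-0.10 and -0.02). Serpinb6a per Serpinb6b was 187 ± 13.9 in 3KR and 92.7 ± 14.3 in WT (SD, n = 3 each).

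**Figure D2:**
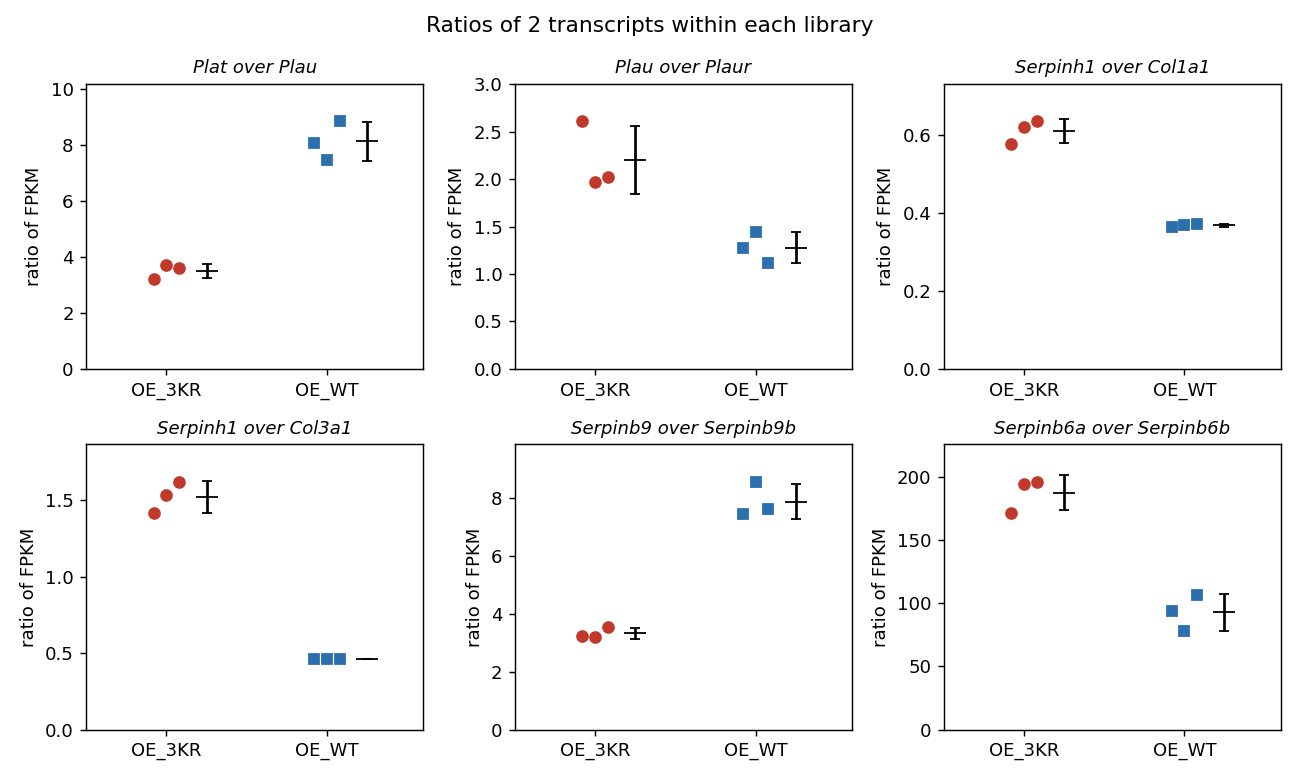
Ratio of the FPKM of 2 transcripts within each library (linear axes from 0), with red circles for the 3 OE_3KR libraries left of blue squares for the 3 OE_WT libraries, and the mean ± SD beside each group. Plau per Plaur, Serpinh1 per Col1a1, Serpinh1 per Col3a1 and Serpinb6a per Serpinb6b are higher in OE_3KR, while Plat per Plau and Serpinb9 per Serpinb9b are lower.

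The promoter windows of the neighbours Serpinb9 (chr13:33004291-33004540, plus strand) and Serpinb9b (chr13:33027164-33027413, plus strand) are shown because they carry a similar stretch. Serpinb9 was called lower under all 4 scalings, and Serpinb9b was called lower under none of them. Capitals mark the interferon response element, which was found in Serpinb9 as TTTCACTTTC, starting 46 bases before the start of transcription. None of the 6 motifs was found in the window of Serpinb9b.
Serpinb9: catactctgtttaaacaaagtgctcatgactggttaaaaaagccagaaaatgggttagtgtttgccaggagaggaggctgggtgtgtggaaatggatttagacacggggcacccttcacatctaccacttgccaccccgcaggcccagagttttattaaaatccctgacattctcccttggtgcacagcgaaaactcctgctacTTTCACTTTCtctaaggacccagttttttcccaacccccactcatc
Serpinb9b: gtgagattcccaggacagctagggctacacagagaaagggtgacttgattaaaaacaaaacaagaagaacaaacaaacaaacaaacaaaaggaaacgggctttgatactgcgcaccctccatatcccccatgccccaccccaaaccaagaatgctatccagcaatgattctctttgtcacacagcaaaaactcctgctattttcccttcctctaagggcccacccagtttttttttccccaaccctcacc

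Aligned without gaps over 30 bases around the element, the windows shared 26 bases. The aligned stretches are given with the 10 bases at the place of the element in capitals.
Serpinb9: ctcctgctacTTTCACTTTCtctaaggacc
Serpinb9b: ctcctgctatTTTCCCTTCCtctaagggcc
Within those 10 bases Serpinb9b differed from Serpinb9 by A5C and T9C, with positions counted from 1 at the first capital. Serpinb6a was the other member with this motif, in 1 of its 2 windows, and it was not called. Serpinb6b, called lower under all 4 scalings, had no match to the motif in its window. The 2.98% of all windows that hold the motif are the background for these matches. That the letters are missing from the window of Serpinb9b says nothing about other sites of that gene.

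Markers of macrophages and monocytes were mostly low in both forms, and 11 of the 14 in the table stayed under 1 FPKM in every library. The 14 markers measured were all lower in mean in 3KR, and they summed to 1.80 to 3.17 FPKM in 3KR and 10.6 to 11.5 in WT. Most of the WT sum was Mpeg1, a pore-forming protein of phagocytes, at 1.05, 1.07 and 0.437 FPKM in 3KR and 6.46, 6.93 and 6.98 in WT. Mpeg1 and Cd68 were the markers tested, and only Mpeg1 was called (log2 difference -2.09, limma adjusted p = 5.737e-06). In WT the marker sum lay below the level of Serpinb9 and above those of Serpinb1a and Serpinb6b. A sum over markers does not give the part of a serpin's level that came from such cells. Of the defining markers, C1qa, C1qb and C1qc were at 0 in each 3KR library and near 0 in WT, at most 0.0539, 0.0573 and 0.0703 FPKM. C1qa was at 0 in a WT library too. Ptprc, the pan-leukocyte marker, had a mean of 0.0219 FPKM in 3KR and 0.119 in WT. The part of such cells in the differences of the clade B genes was not tested. In bulk RNA fewer cells of a type and less RNA per cell cannot be told apart. The 5 neutrophil and mast cell markers summed to 0.130 to 0.279 FPKM in 3KR and 0.376 to 0.662 in WT. The 6 epithelial markers, a cell type in which Serpinb2, Serpinb5 and Serpinb7 are known, summed to 2.29 to 3.79 FPKM in 3KR and 2.29 to 2.85 in WT. Krt10, a keratin, held most of that sum, was the 1 tested and was not called. By mean 4 of the 6 were higher in 3KR and 2 lower. Among the 7 endothelial markers, which summed to 1.94 to 2.17 FPKM in 3KR and 5.17 to 6.31 in WT, Tek, the angiopoietin receptor, held most of the sum, was the 1 tested and was called lower. Kdr, a receptor of endothelial growth factor, went the other way without a test, at 0.362, 0.231 and 0.410 FPKM in 3KR and 0.214, 0.161 and 0.0423 in WT. The 5 megakaryocyte and erythroid markers summed to 0.896 to 1.48 FPKM in 3KR and 1.75 to 2.21 in WT. Of the defining markers of these other types, Cpa3 of mast cells, Cldn5 of endothelium and Hba-a1 of red cells were listed at 0 in all 6 libraries.

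**Figure D3:**
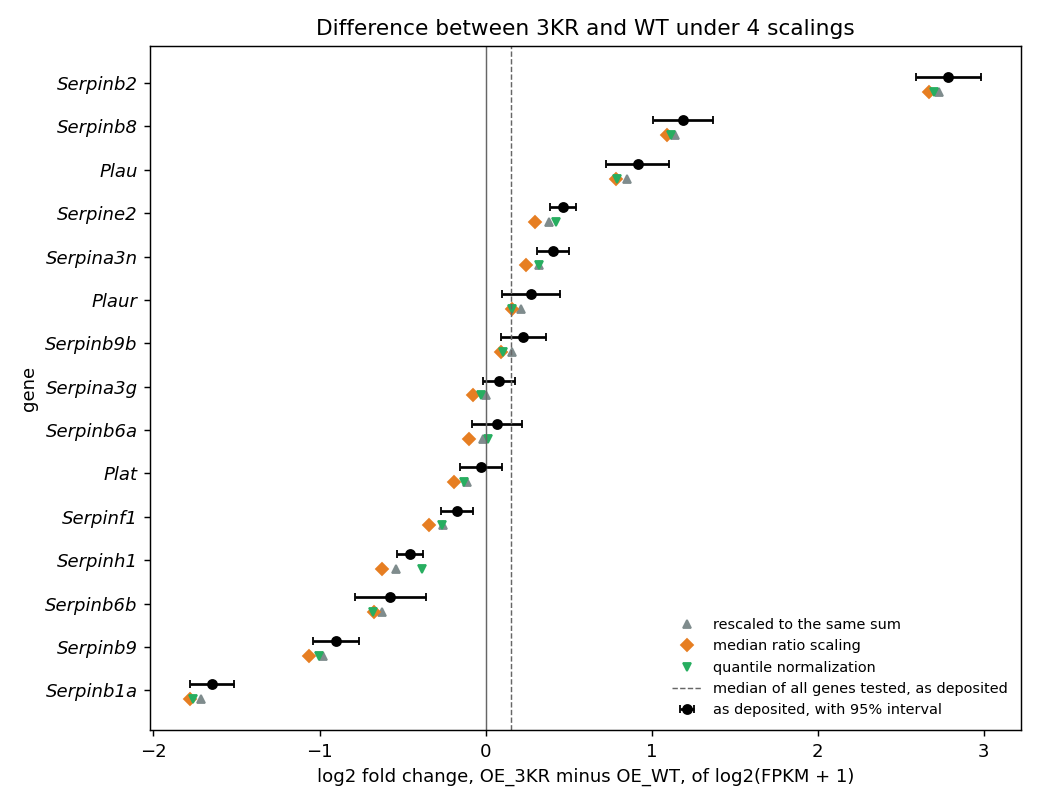
Log2 fold change (OE_3KR minus OE_WT, of log2(FPKM + 1)) of 15 tested serpin and plasminogen activator genes, as deposited with its 95% interval (black) and under 3 other scalings (coloured marks below it), with the median of all genes tested at 0.15 as a dashed line. That line is the median of the values as deposited. Serpinb2, Serpinb8, Plau, Serpine2, Serpina3n and, by a narrow margin, Plaur lie to its right under every scaling. Serpinb1a, Serpinb9, Serpinb6b, Serpinh1 and Serpinf1 lie to the left of 0. Serpina3g and Serpinb6a change side of 0 with the scaling.

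The 16 genes that did not pass the filter were low in both forms, and no test was made of them. Of these, Serpinb5, Serpinb7, Serpinb1c and Serpina9 were listed at 0 in all 6 libraries. Serpina10, which inhibits a coagulation protease together with protein Z, was the highest, at 0, 0 and 0.379 FPKM in 3KR and at 0.668, 1.27 and 0.416 in WT. Serpini1, which encodes neuroserpin, an inhibitor of the tissue-type activator, was at 0.301, 0.393 and 0.304 FPKM in 3KR and at 0.343, 0.532 and 0.474 in WT. The 3KR libraries of Serpina10 all lay below the WT libraries, and those of Serpini1 overlapped them. Serpinb1b, a paralog of Serpinb1a, reached 0.244 FPKM in a WT library and 0.1004 in a 3KR library. The other 9 stayed under 0.15 FPKM in every library. They included Serpina3c, which reached 0.136 FPKM, Serpina3m, which reached 0.0873, and Serpina6, the corticosteroid-binding globulin of plasma, which reached 0.0755. Among them too were the main plasma inhibitors of the clotting and plasmin cascade, Serpinc1 (antithrombin), Serpind1 (heparin cofactor) and Serpinf2 (the antiplasmin), whose highest values were 0.0496, 0.050 and 0.0564 FPKM. Serpinf2 was listed at 0 in each WT library and at 0.0444, 0.0564 and 0 FPKM in the 3KR libraries.

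Genes in or near the plasminogen system were called in both directions. The list held receptors, cofactors, contact activators and substrates of the system and other proteases such as Masp1 and Htra1, with 18 genes in the table. Of these 11 were tested, and 5 were called higher and 5 lower in 3KR, against 46.7% and 14% of all genes tested. The median log2 difference was 0.12. Under all 4 scalings 2 were called higher and 5 lower, where 21.5% and 13.9% of all genes tested were. Itgb2, which is in both counts of 5 lower, passed the filter only through the WT libraries, so its direction was fixed by the filter. Anxa2, encoding annexin A2, which gathers plasminogen and the tissue-type activator at the cell surface, was at 512 ± 30.8 FPKM in 3KR and 337 ± 9.72 in WT (SD, n = 3 each; limma adjusted p = 1.991e-05). Masp1, a serine protease of the lectin pathway of complement, was at 49.6 ± 1.12 FPKM in 3KR and 39.1 ± 1.24 in WT (limma adjusted p = 1.965e-04). Lower in 3KR were Htra1, a secreted serine protease, at 10.6 ± 0.879 FPKM in 3KR and 33.1 ± 0.705 in WT, and Itgb3, the beta chain of the vitronectin receptor, at 5.30 ± 0.335 in 3KR and 11.8 ± 0.950 in WT. Mrc2, a collagen uptake receptor that associates with the urokinase receptor, was at 130 ± 0.924 FPKM in 3KR and 199 ± 8.04 in WT (limma adjusted p = 4.407e-06). Vtn, which encodes vitronectin, an adhesive protein of plasma and matrix, was at most 0.0283 FPKM in a WT library and was listed at 0 in the 3KR libraries.

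Among receptors and cofactors of serpins the share called in either direction was near that of all genes. In that list 5 of 9 tested were called, where 60.6% of all genes tested were. They were 1 higher and 4 lower, where 46.7% of all genes tested were higher and 14% lower. All 5 calls held under all 4 scalings, so 5 of 9 tested were called throughout, where 35.4% of all genes tested were. The median log2 difference was -0.10. Lrp2 and Vldlr, endocytic receptors of one family, were at 4.18 ± 0.596 and 50.6 ± 1.73 FPKM in 3KR and at 9.28 ± 0.333 and 73.5 ± 5.39 in WT (SD, n = 3 each). Plxdc2, named as a receptor of pigment epithelium-derived factor, was at 6.72 ± 0.216 FPKM in 3KR and 8.25 ± 0.157 in WT (limma adjusted p = 0.00193). Procr, the endothelial protein C receptor, was the 1 higher gene, at 19.8 ± 1.13 FPKM in 3KR and 15.9 ± 0.573 in WT (limma adjusted p = 0.0018).

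The next list held proteases of the kind that serpins inhibit, together with F3, the tissue factor, which is a cofactor rather than a protease. Of 9 tested 5 were called lower, F3 among them, and 2 higher, where 14% of all genes tested were lower and 46.7% higher. The lower calls held under all 4 scalings and neither of the higher ones did, and the median log2 difference was -0.20. Ctsk and Ctsl, the cathepsins K and L, were at 131 ± 3.38 and 283 ± 24.5 FPKM in 3KR and at 209 ± 1.28 and 391 ± 5.91 in WT (SD, n = 3 each). F3, which starts clotting, was at 62.1 ± 0.401 FPKM in 3KR and 79.9 ± 2.58 in WT, and Prss23, a secreted serine protease, at 105 ± 2.92 in 3KR and 130.1 ± 8.32 in WT. Ctsb, cathepsin B, was at 921 ± 40.9 FPKM in 3KR and 827 ± 14.7 in WT, called higher as deposited (limma adjusted p = 0.00872), while median ratio scaling gave a log2 difference of -0.02.

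Protease inhibitors that are not serpins were called in either direction about as often as all genes. Of 9 tested 6 were called, where 60.6% of all genes tested were, with a median log2 difference of -0.11. They were 4 lower and 2 higher, where 14% of all genes tested were lower and 46.7% higher. Under all 4 scalings 4 were lower and 1 higher, against 13.9% and 21.5% of all genes tested. Itih5, a chain of the inter-alpha-trypsin inhibitor family that binds hyaluronan, was 6.74-fold lower, at 0.579 ± 0.0277 FPKM in 3KR and 3.90 ± 0.149 in WT (SD, n = 3 each; limma adjusted p = 2.525e-07). It passed the filter only through the WT libraries. Cst3, the secreted cathepsin inhibitor cystatin C, was at 21.7 ± 2.11 FPKM in 3KR and 34.2 ± 1.27 in WT, and Tfpi, the inhibitor of tissue factor, at 15.995 ± 0.319 in 3KR and 19.0 ± 0.278 in WT. Reck, a membrane-bound inhibitor of matrix metalloproteases, was higher, at 22.3 ± 1.08 FPKM in 3KR and 17.5 ± 0.656 in WT (limma adjusted p = 7.008e-04). Cstb, the cytosolic cathepsin inhibitor cystatin B, was at 21.2 ± 1.44 FPKM in 3KR and 17.7 ± 0.220 in WT and lost its call after median ratio scaling (limma adjusted p = 0.186).

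**Figure D4:**
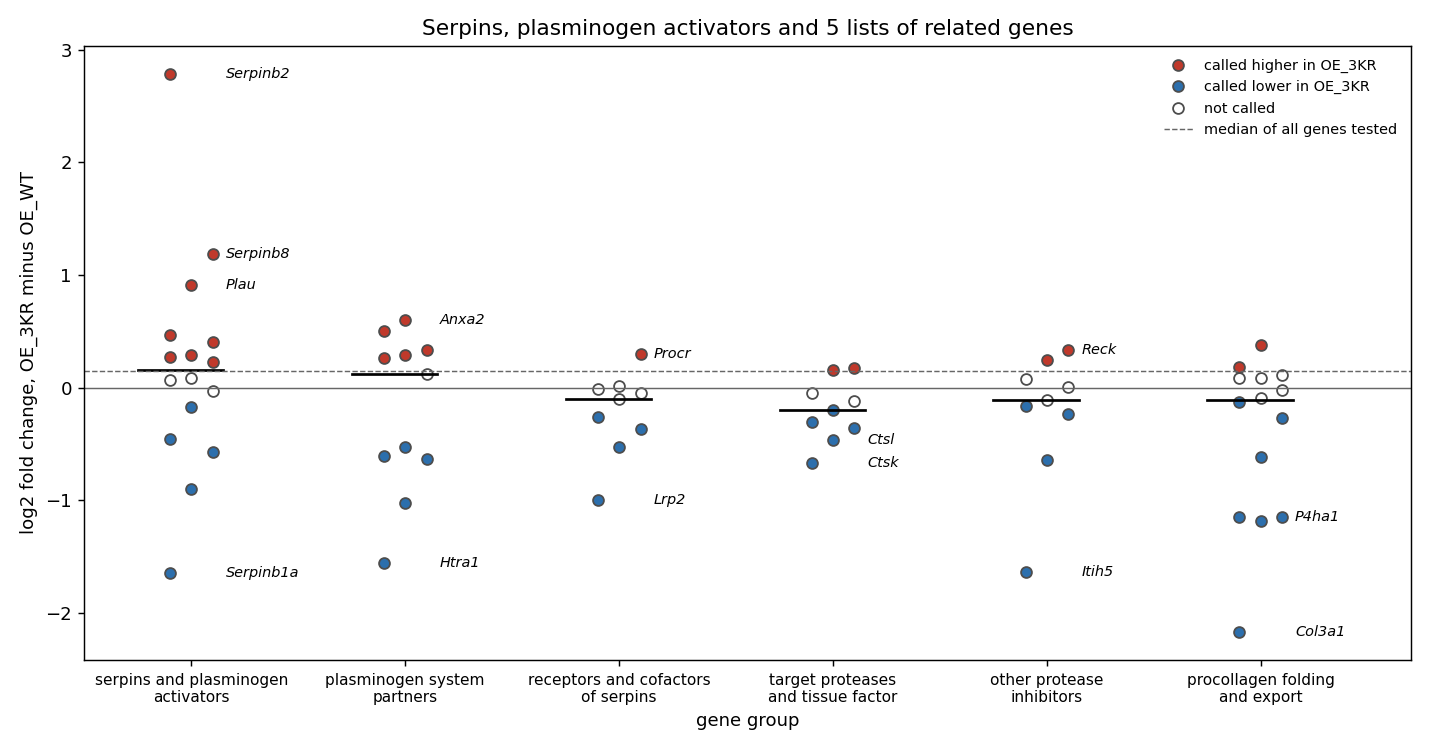
Log2 fold change (OE_3KR minus OE_WT, of log2(FPKM + 1)) of each tested gene among the serpins and plasminogen activators and in 5 lists of related genes, with 1 point per gene, red where called higher in OE_3KR, blue where called lower and white where not called, and a black bar at each group's median. The dashed line at 0.15 is the median of all genes tested. Serpinb2 lies highest and Col3a1 lowest among the genes shown.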

How the data were processed

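The deposited table held FPKM for each gene in each library, per the file headers. For the authors' aligner, counter and annotation the sources used here give nothing. Per the submitters' processing notes the build was GRCh38, a human assembly, although the organism is mouse, so coordinates are given only for RefSeq promoter windows. Of 19763 rows 24 repeated a name, and of such rows the 1 of highest mean stayed. No counts could be recovered from the values, since among 5669 genes below 2 FPKM the commonest ratio between a pair of libraries was that of 10 genes. Samples were grouped by title. Values were compared with limma 3.58.1 in R 4.3.3 (lmFit, empirical Bayes with an intensity trend) on log2(FPKM + 1), 3KR minus WT, adjusted over all genes tested. The fit was tested on simulated data in which few genes changed and all genes held no common shift, which is unlike these data. Ratios of levels are of mean FPKM. The genes, lists and motifs were chosen with earlier results of these data known. Every tested serpin or activator gene but 1 is named, with the highest untested ones and up to 5 tested genes of each related list with the smallest p. The results of 1 tested serpin and 1 gene of the related lists are not reported here, though counts and medians include them. Promoter letters came from RefSeq, matched by symbol. Alternatives were another pseudocount, 2 other filters, 3 other scalings, library weights, no intensity trend, the replicate number as a block, and leaving out each library.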

Additional observations from a re-analysis of the deposited data

How the results depend on the processing

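Of the 235 values of the 16 tested genes recomputed under the alternatives, 224 kept their direction and their side of the threshold, and 11 of the 16 genes did so throughout. The 5 exceptions were Serpina3g, Serpinb6a, Serpinb9b, Plaur and Plat. The sign turned for Serpina3g after median ratio scaling (-0.078) and quantile normalization (-0.028), for Serpinb6a after median ratio scaling (-0.10) and rescaling to the same sum (-0.017), and for Plat without 3KR replicate 2 (0.015; -0.078 to 0.015 over the libraries left out in turn), all on the log2 scale and none of them called. Among the related genes Ctsb turned to -0.016 after median ratio scaling. The number of serpin and activator genes called higher was 4 in place of 8 among genes at 5 FPKM or more in at least 3 libraries, where fewer were tested. Leaving out each library in turn gave 8 to 9 called higher, 5 called lower, 5798 to 6638 genes called in all and 33 to 37 called in the related lists. Same-numbered libraries of the 2 forms did not deviate together (correlations of -0.015, 0.029 and -0.034), and the libraries did not all correlate best with their own number. With the replicate block 6425 genes were called in place of 6662, and 8 of the genes described here were higher and 5 lower, as without it. The unknown depth limits what can be said of genes near 0.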
